A study of Mus musculus with 6 samples.

Results

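The Kit-positive erythroid progenitors described here were cells of the phenylhydrazine (PHZ)-treated mouse spleen that held at least 2 transcripts of Kit, at least 3 transcripts of Klf1, Epor and Gata1 summed, and fewer than 3 transcripts of C1qa, C1qb and C1qc summed. Of the 94582 cells of that section, 1818 met this rule (1.92%, 95% Clopper-Pearson interval 1.84 to 2.01), among 521938 cells in the whole series. They were set against 16008 cells of the same section (16.9%) that held at least 8 transcripts of Slc4a1 and no Kit under the same C1q limit, hereafter called Slc4a1-high cells. The cells were thus chosen by their counts of Kit, Klf1, Epor, Gata1, Slc4a1 and the C1q genes, and the levels of these genes are a description.

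The series mapped blood-forming tissue of wild-type mice with Xenium, an imaging assay that counts RNA molecules of a probe panel inside segmented cells of a 5 µm section of fixed tissue. There was a single section of each condition: an E14.5 fetal liver, a P8 bone marrow, an untreated adult spleen and a spleen taken after PHZ at 40 mg/kg injected into the peritoneum 2 times per day for 2 days, all read with a panel of 477 genes, and an E13.5 fetal liver and an 89-week bone marrow read later with 5050 genes. With 1 mouse per condition there was no replicate, so no p-value is given, and every interval is a 95% interval for counting error only. The labels give neither the age of the mice of the 2 spleens nor the time from the last injection to collection.

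PHZ damages circulating red cells, and the mouse spleen answers the anemia by making red cells itself. Erythroid progenitors carry Kit, the receptor for stem cell factor, and lose it as they mature, while the erythropoietin receptor Epor and the transcription factors Gata1 and Klf1 are used through much of the lineage and Slc4a1, the band 3 anion exchanger of the red cell membrane, accumulates late. In mouse tissue, maturing erythroblasts sit around macrophages in erythroblastic islands, and C1q marks such macrophages in this study.

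The Kit-positive progenitors held more transcripts than most cells of the section, with a median of 178.5 gene transcripts per cell against 148 in Slc4a1-high cells and 104 over all cells. Cells were not replicates of a condition, and transcripts of a neighbor that fell inside an outline were not removed. Of the 521914 cell names in the series 24 were found in more than 1 section, and none of them belonged to the progenitors of this spleen.

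Among the progenitors, Kit stood at a mean of 3.51 ± 2.21 transcripts per cell (SD over 1818 cells), with a median of 3 and a highest value of 22. Klf1 averaged 3.69 ± 2.48, Epor 3.85 ± 3.06 and Gata1 3.11 ± 2.25 transcripts per cell. All 3 erythroid genes of the rule were present together in 1459 progenitors (80.3%), so the sum was rarely carried by a single gene. The band 3 gene Slc4a1, on which no limit was set, averaged 5.31 ± 5.36 transcripts, was absent from 270 progenitors (14.9%) and stood at 12.95 in Slc4a1-high cells. No C1q transcript was seen in 861 progenitors (47.4%).

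Epor, Gata1 and Klf1 were thus each detected in most of the cells, but Kit by itself was not particular to erythroid cells in this spleen. At least 2 Kit transcripts were found in 4349 of all cells (4.60%). The share was 16.6% among 4304 cells with at least 3 transcripts of the endothelial genes Kdr, Tie1, Clec14a and Plvap, with a median of 148 transcripts per cell. It was 1.79% among 3456 cells with at least 3 transcripts of the T cell receptor complex genes Cd3e and Cd3d, with a median of 86 transcripts, and this is the level in a cell type that should lack Kit. Of the 3107 cells with enough Kit and enough erythroid transcripts, the C1q limit removed 1289 (41.5%).

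The limits cut through gradual differences. The 829 progenitors with exactly 2 Kit transcripts (45.6%) had a median nucleus of 31.0 µm2, against 28.5 µm2 in the 2399 cells that met the rule but for a single Kit transcript. Their Cd48 level was 4503 against 2708 CPM (counts scaled to a total of 1000000 in each group) and their Slc25a37 level 19498 against 29129 CPM. The 148 progenitors with an erythroid sum of exactly 3 had a median nucleus of 23.8 µm2, against 22.9 µm2 in 149 cells with a sum of 2, and a Stmn1 level of 36231 against 24223 CPM. At the C1q limit, 378 progenitors with 2 transcripts had 35.5 µm2 and 280 cells with 3 transcripts had 35.2 µm2, and Cd48 stood at 6205 and 6260 CPM. Counted over the nucleus alone, 1575 progenitors (86.6%) held a Kit transcript and 961 (52.9%) met the whole rule.

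The transcription start regions of 3 of these genes are shown because they include a gene of the rule, one that was higher and one that was lower in the progenitors, and because GATA factors, of which Gata1 is a rule gene, bind short motifs in such regions. The sequences are from RefSeq on GRCm38.p6, run from 250 bases before to 50 bases after the start site, and carry the letters AGATAA, or TTATCT where the match lies on the other strand, in capitals. Epor, the receptor of the rule, lies at chr9:21963527-21963826 on the minus strand, Cd44, an adhesion receptor that was higher in the progenitors, at chr2:102901616-102901915 on the minus strand, and Hemgn, an erythroid nuclear protein that was lower, at chr4:46404134-46404433 on the minus strand.
Epor: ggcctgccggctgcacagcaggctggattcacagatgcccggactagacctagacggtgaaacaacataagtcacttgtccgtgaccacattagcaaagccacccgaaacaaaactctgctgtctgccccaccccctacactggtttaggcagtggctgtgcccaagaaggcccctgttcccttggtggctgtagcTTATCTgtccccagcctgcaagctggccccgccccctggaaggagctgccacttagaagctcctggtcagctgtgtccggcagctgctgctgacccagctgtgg
Cd44: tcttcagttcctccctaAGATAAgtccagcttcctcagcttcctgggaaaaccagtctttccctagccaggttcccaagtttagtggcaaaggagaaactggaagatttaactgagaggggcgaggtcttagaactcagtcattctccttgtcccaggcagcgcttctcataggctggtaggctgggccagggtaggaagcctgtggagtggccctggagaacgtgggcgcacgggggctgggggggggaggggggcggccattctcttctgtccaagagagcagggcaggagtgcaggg
Hemgn: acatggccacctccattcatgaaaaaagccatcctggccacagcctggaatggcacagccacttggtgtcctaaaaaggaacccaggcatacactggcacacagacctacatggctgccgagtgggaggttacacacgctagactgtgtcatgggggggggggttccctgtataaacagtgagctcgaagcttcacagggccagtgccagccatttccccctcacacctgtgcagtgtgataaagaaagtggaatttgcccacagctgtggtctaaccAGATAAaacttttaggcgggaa
Of 30 erythroid and progenitor genes of the lists below, 19 had a window in the table, and 5 of their 24 windows (20.8%) held the letters on either strand, those of Epor, Cd44, Hemgn, Rhd and Isg20. Over all 32851 windows of the table, 3672 (11.2%) held them. The match is a description of these letters and says nothing of binding.

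Gene levels were compared on the CPM scale, that is counts of a gene scaled to a total of 1000000 counts over all genes of a group of cells. Outside the 8 genes of the rule, 259 genes had at least 100 transcripts over both groups, and 89 of them (34.4%) were at least 2-fold higher and 8 (3.09%) at least 2-fold lower in the progenitors than in Slc4a1-high cells. The median gene was higher in the progenitors by 0.72 on the log2 scale, and by 0.98 as transcripts per cell. On the per-cell scale 122 of the 259 genes were at least 2-fold higher and 2 at least 2-fold lower. The lists below are to be read beside the median of 0.72 and the shares of 34.4% and 3.09%. Against the broader set of 20985 Kit-0 cells that passed the erythroid and C1q limits whatever their Slc4a1, 57 of 281 genes (20.3%) were at least 2-fold higher and 8 (2.85%) at least 2-fold lower.

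A gene can stand above the Slc4a1-high cells and still be at or under the level of the tissue around them. Of the 89 higher genes, 46 were lower in the progenitors than in the section as a whole, 43 were higher, and 11 were at least 2-fold above both. These 11 were Podxl, Eng, Gatm, Tmem147, Selenbp1, Stmn1, Il4, Vegfa, Ndrg1, Hsd11b2 and Scin. All 8 lower genes were also below the section as a whole.

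**Figure D1:**
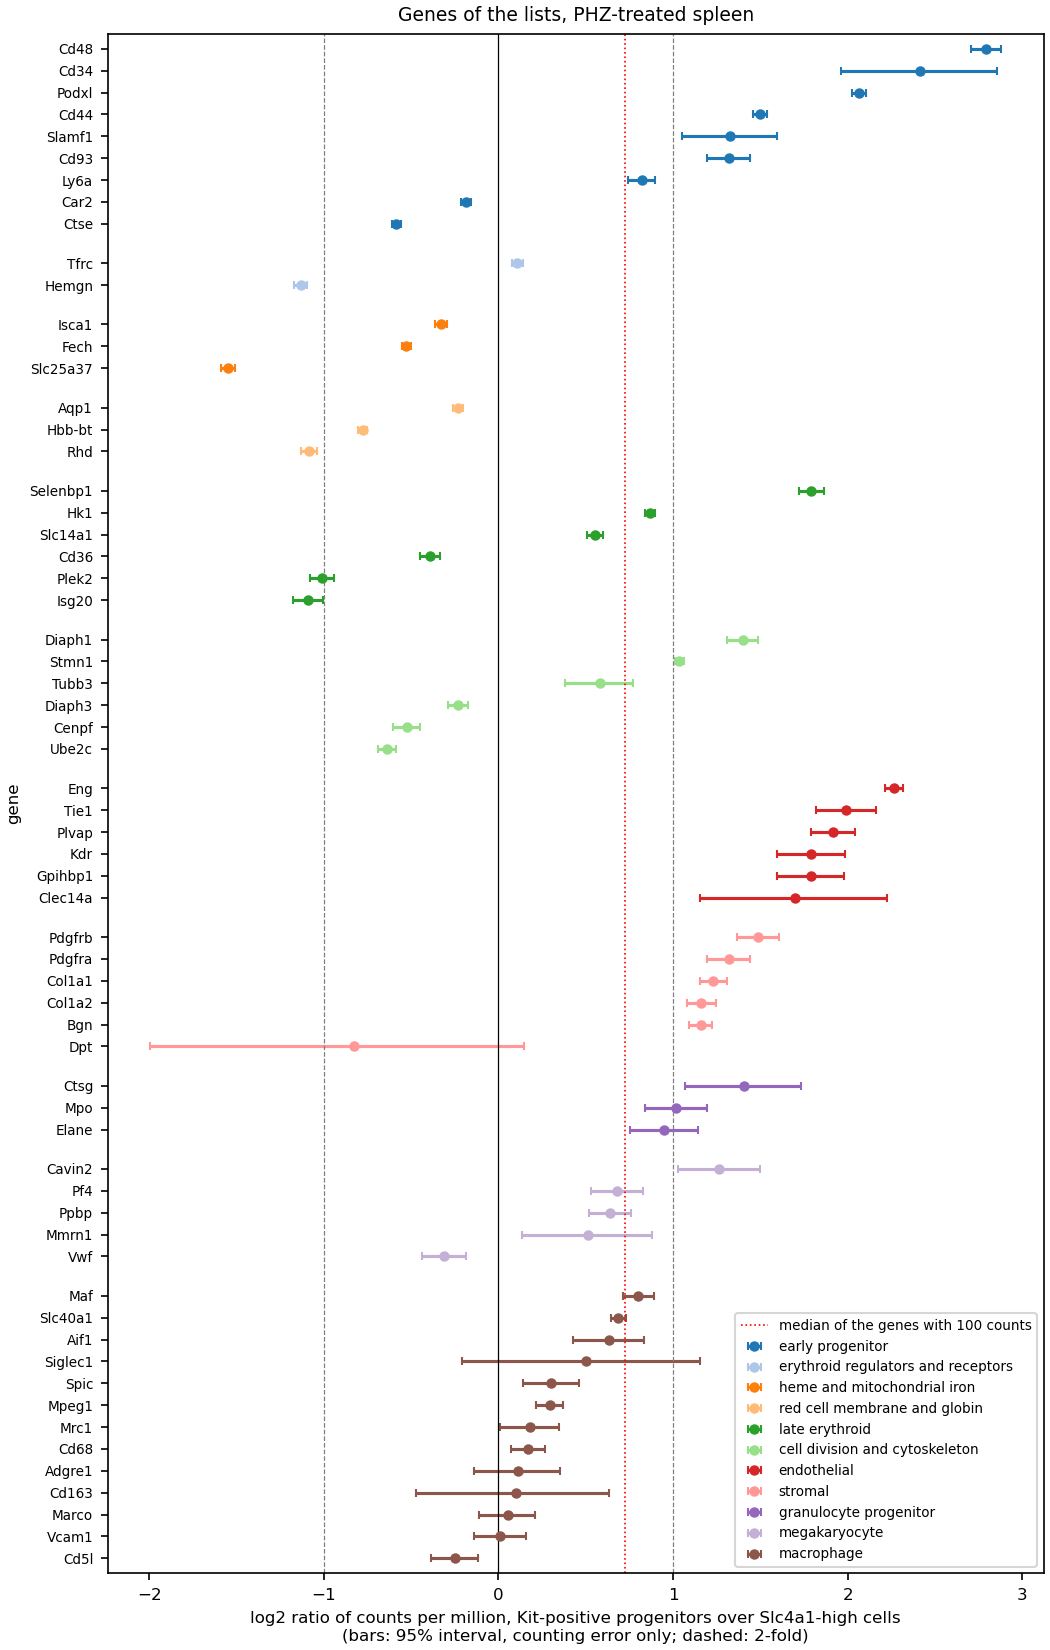
Log2 ratio of CPM, progenitors over Slc4a1-high cells, for the genes of the lists named in the legend in the PHZ-treated spleen (horizontal axis), with 95% counting intervals as bars and the all-gene median of 0.72 as a dotted line. Early progenitor and endothelial genes lie mostly right of the dotted line, whereas the red cell membrane and globin genes drawn lie left of it and below 0 on this scale (Aqp1 at 0.02 per cell).

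The early progenitor list held 9 genes outside the rule, of which 6 were at least 2-fold higher and none lower, with a median log2 ratio of 1.33. Over all tested genes 34.4% were at least 2-fold higher, with a median of 0.72. Podxl, a sialomucin of the CD34 family found on blood progenitors and vessels, averaged 4.23 ± 3.63 transcripts in the progenitors and 0.846 ± 1.51 in Slc4a1-high cells. That was 4.19-fold higher on the CPM scale (log2 2.07, 2.03 to 2.11). It was present in 87.5% of progenitors and 39.5% of Slc4a1-high cells, and in 79.9% and 33.4% once every cell was thinned to 100 transcripts, which left out 177 and 2592 shallower cells. Podxl was thus more frequent in the progenitors without being exclusive to them.

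Cd48, a cell surface receptor of the SLAM family used to sort blood progenitors, was 6.93-fold higher (log2 2.79, 2.71 to 2.88), with 1.14 transcripts per progenitor and 0.138 per Slc4a1-high cell. It was nonetheless patchy and was detected in 51.2% of progenitors. Cd44, the hyaluronan receptor, which declines as erythroblasts mature, averaged 3.51 transcripts against 1.04 (log2 1.50, 1.46 to 1.54). Cd34, a stem and progenitor antigen shared with endothelium, was sparse, with 75 transcripts in all progenitors and 104 in all Slc4a1-high cells (log2 2.41, 1.96 to 2.85).

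The remaining genes of this list had smaller ratios, some of them below 0. Slamf1 (log2 1.33) and Cd93 (1.32) were at least 2-fold higher, but Slamf1 stood at 0.40 against Kit-0 erythroid cells, and Cd93 at 0.67 without cells that held endothelial transcripts. Ly6a, which encodes the stem cell antigen Sca-1, had a log2 ratio of 0.82. These 3 genes were below the section as a whole, at 451 against 710 CPM for Slamf1, 2201 against 2838 for Cd93 and 4965 against 9878 for Ly6a. The aspartic protease Ctse was detected in 96.3% of progenitors yet stood at 7.32 transcripts per progenitor against 9.20 per Slc4a1-high cell (log2 -0.58). Car2, a carbonic anhydrase of early and late red cells, was near even at a log2 ratio of -0.19 on the CPM scale and 0.07 per cell.

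Genes of the erythroid regulator, heme and membrane lists were mostly below 0 on the log2 scale, and those of the late erythroid list lay on both sides of it. Over all tested genes 3.09% were at least 2-fold lower and 34.4% at least 2-fold higher. Of the 2 regulators outside the rule 1 was at least 2-fold lower and none higher (median log2 -0.51). Hemgn had 3.79 transcripts per progenitor against 6.96 per Slc4a1-high cell, 2.19-fold lower on the CPM scale (log2 -1.13, -1.17 to -1.10), while the transferrin receptor Tfrc was near even (5.21 against 4.05 transcripts per cell, log2 0.11). In the heme and mitochondrial iron list, 1 of 4 genes was at least 2-fold lower and none higher (median log2 -0.61). The gene in question was Slc25a37, the mitochondrial iron importer mitoferrin-1, with 2.96 transcripts per progenitor against 7.25 (2.92-fold lower, log2 -1.55, -1.59 to -1.51). Fech, the last enzyme of heme synthesis, had a smaller ratio (log2 -0.53), as had the iron-sulfur assembly gene Isca1 (-0.33).

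The red cell membrane and globin list had 4 genes outside the rule, 2 of them at least 2-fold lower and none higher (median log2 -0.93). Rhd, the Rh blood group protein, averaged 2.30 transcripts per progenitor and 4.08 per Slc4a1-high cell (log2 -1.08). Hbb-bt, an adult beta globin, was present in 94.9% of progenitors and stood at 7.61 against 10.9 transcripts per cell (log2 -0.78). The water channel Aqp1 was close to even, with a log2 ratio of -0.23 on the CPM scale and 0.02 per cell.

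The late erythroid list of 6 genes was mixed, with 1 gene at least 2-fold higher, 2 at least 2-fold lower and a median log2 of 0.08. Selenbp1, a selenium-binding protein, had 1.31 transcripts per progenitor and 0.317 per Slc4a1-high cell (3.46-fold higher, log2 1.79, 1.72 to 1.86). Hk1, the hexokinase of red cells, had a log2 ratio of 0.87 and the urea transporter Slc14a1 one of 0.55. Isg20, an exonuclease (log2 -1.09), and Plek2, a pleckstrin-like protein of erythroblasts (log2 -1.01), were lower, and the scavenger receptor Cd36 was at -0.39.

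Of the 6 genes of cell division and the cytoskeleton, 2 were at least 2-fold higher and none lower. The list median of 0.17 on the log2 scale lay below the all-gene median of 0.72, and 34.4% of all genes were 2-fold higher. Stmn1, which destabilizes microtubules in dividing cells, averaged 8.29 transcripts per progenitor and 3.39 per Slc4a1-high cell (log2 1.04, 1.01 to 1.06), and the formin Diaph1 had a log2 ratio of 1.40. Against Kit-0 erythroid cells Stmn1 stood at 0.84 and Diaph1 at 1.05. With a total that left out the genes of the rule and Hbb-bt, Stmn1 stood at 0.94 and Diaph1 at 1.31. The mitotic genes Cenpf and Ube2c had ratios below 0 (log2 -0.53 and -0.64), so genes of this list did not move as a block. Diaph3, a related formin, was near even at -0.23 on the CPM scale and 0.02 per cell, and the tubulin Tubb3 stood at 0.58.

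Outside the lists, the genes with the highest ratios were Scin, Il4, AU021092, Tnfrsf18, Tmem147, Ndrg1 and Gatm, beside Cd48, Cd34 and Eng. Gatm, the first enzyme of creatine synthesis, had 2.06 transcripts per progenitor and 0.374 per Slc4a1-high cell (log2 2.21), and Tmem147, a protein of the endoplasmic reticulum membrane, 1.91 and 0.326 (log2 2.30). Il4, which encodes interleukin 4, was rare but had a ratio close to that of Scin, with 320 transcripts in the progenitors and 192 in the far more numerous Slc4a1-high cells (log2 3.62, 3.36 to 3.89). It was seen in 14.9% of progenitors and 1.16% of Slc4a1-high cells, and 78.1% of its transcripts in progenitors lay over the nucleus. Probe sequences were not used here, so whether the Il4 probes also bind another transcript was not tested, and this holds for each Il4 value given. Scin, an actin-severing protein, rested on 77 transcripts in 2.20% of progenitors (log2 3.63).

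At the other end were Gfap (log2 -1.61), which is known from glia, and Rsad2, an interferon-induced gene, with 1.91 transcripts per progenitor and 3.53 per Slc4a1-high cell (log2 -1.14). The 10 lowest genes also held erythroid genes and Dpt, which had 9 transcripts in the progenitors and an interval that spanned 0 (log2 -0.83, -1.99 to 0.14).

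Markers of endothelial and stromal cells were higher in the progenitors than in Slc4a1-high cells. Over all tested genes 34.4% were at least 2-fold higher, with a median log2 of 0.72. All 6 endothelial genes were at least 2-fold higher than in Slc4a1-high cells (median log2 1.85), with a summed level of 3.73 transcripts per progenitor, 0.705 per Slc4a1-high cell and 1.13 per cell of the section. Of that sum, Eng, an auxiliary TGF-beta receptor that is found on endothelium and on proerythroblasts, made up 2.69 transcripts (log2 2.27, 2.21 to 2.32), and it was present in 83.0% of progenitors. Of the stromal genes 5 of 6 were at least 2-fold higher and none lower (median log2 1.20), with summed levels of 3.93, 1.42 and 3.40 transcripts per cell. On the CPM scale the stromal sum was lower in the progenitors than over all cells, at 21072.5 against 28172. The endothelial sum was higher, at 19982 against 9328 CPM. Against Kit-0 erythroid cells none of the 5 stromal genes was 2-fold higher, with Bgn at 0.79 and Pdgfrb at 0.80. A transcript of Kdr, Tie1, Clec14a, Plvap or Gpihbp1 was present in 640 progenitors (35.2%), in 13.6% of Slc4a1-high cells and in 18.7% of all cells.

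Once all cells with any such transcript were removed from both groups, the log2 ratios were 2.14 for Podxl, 2.30 for Eng, 2.88 for Cd48, 1.54 for Cd44, 2.22 for Gatm, 3.56 for Il4 and -1.36 for Slc25a37. Over all genes the 89 higher genes became 67 of 234 tested, of which 55 were shared. Of 34 named genes that had been 2-fold apart and still had a value, 28 remained so. The other 6 were Hemgn (-0.97), Rhd (-0.90), Isg20 (-0.98), Plek2 (-0.92), Cavin2 (0.78) and Cd93 (0.67), and AU021092 went from 2.40 to 1.26. The part that stromal transcripts have in these ratios was not tested.

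Markers of other blood cells differed less. Both groups were limited to fewer than 3 C1q transcripts, so the levels of macrophage genes in them depend on the rule. None of 13 macrophage genes outside the rule was 2-fold apart (median log2 0.18, below the all-gene median), with 6.58 summed transcripts per progenitor, 4.03 per Slc4a1-high cell and 8.73 per cell of the section. The largest share came from the iron exporter Slc40a1, which erythroid cells also use, with 3.14 transcripts per progenitor. Among 3 granulocyte progenitor genes Mpo and Ctsg were at least 2-fold higher (median log2 1.02), yet Mpo was detected in 5.72% of progenitors. Of 5 megakaryocyte genes 1 was at least 2-fold higher (Cavin2, log2 1.27, median 0.64), of 6 neutrophil genes 1 (S100a9, log2 1.12, median 0.60), and of 4 monocyte, 4 T cell, 2 NK cell genes and 1 mast cell gene none, with medians between 0.38 and 0.63. Over all tested genes 34.4% were at least 2-fold higher, with a median of 0.72. Against Kit-0 erythroid cells Mpo stood at 0.54, Cavin2 at 0.58, S100a9 at 0.77 and Ctsg at 1.05. T cell transcripts summed to 0.121 per progenitor, 0.0674 per Slc4a1-high cell and 0.520 per cell of the section.

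Several genes differed along the amount of Kit. The 829 progenitors with 2 Kit transcripts, 364 with 3, 365 with 4 or 5 and 260 with 6 or more were taken in turn, with median depths of 159, 169, 189 and 223 transcripts. Podxl stood at 19085, 22421, 24607 and 28642 CPM along this order, against 5403 in Slc4a1-high cells. Cd48 stood at 4503, 5478, 6594 and 9954 CPM, Cd44 at 15842, 17992, 20536 and 24275, and Stmn1 at 40034, 44287, 47053 and 51455. Each of these genes was lowest at 2 Kit transcripts and highest at 6 or more, and even the lowest bin lay above the Slc4a1-high cells. Other genes of the same lists did not climb. Ctse stood at 42958, 40769, 36541 and 32222 CPM, Cd34 at 213, 247, 209 and 225, and Car2 at 35311 in the first bin and 35497 in the last. The mitotic gene Ube2c stood at 10542, 10617, 9912 and 11800 CPM and Cenpf at 4709, 4506, 3959 and 5025. The early progenitor list as a whole went from 126000 to 137236 CPM between the first and last bins.

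Some erythroid genes ran the other way. Slc25a37 stood at 19498, 15199, 13523 and 11094 CPM along the same order, and Hemgn at 24278, 21156, 17566 and 13518. The Slc4a1-high cells were above all 4 bins for both, at 46351 and 44473 CPM. Tfrc, in contrast, stood at 26121, 28316, 28817 and 30376 CPM and the late erythroid list at 68054, 67958, 72859 and 74301, while Aqp1 was 30410 at 2 Kit transcripts and 31178 at 6 or more. Endothelial transcripts gave 18858, 19242, 22334 and 20582 CPM for the list. The bins differ in depth and in nucleus area as well as in Kit, and the part of either in these gradients was not tested.

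**Figure D2:**
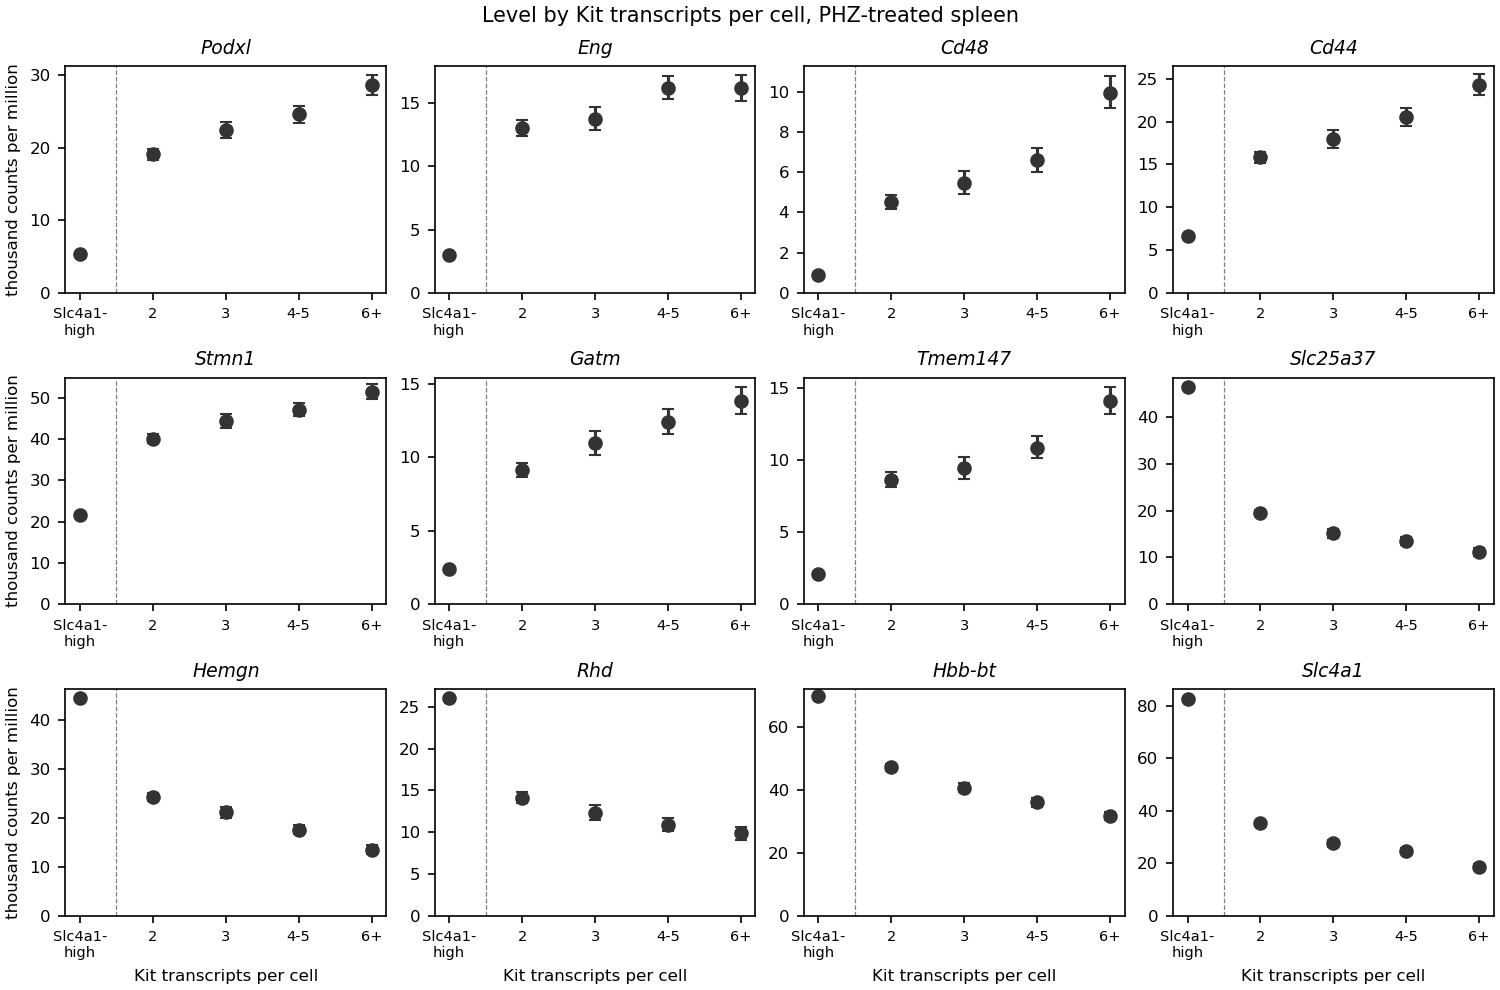
CPM divided by 1000 (vertical axis) of 12 genes in Slc4a1-high cells and in progenitors with 2, 3, 4 to 5 and 6 or more Kit transcripts, with 95% counting intervals. Podxl, Cd48, Cd44 and Stmn1 climb with Kit, and Slc25a37 and Hemgn decline from the Slc4a1-high cells toward the Kit-richest bin.

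Slc4a1, which the rule left free, divided the progenitors in another way. It was 0 or 1 in 491 of them (27%), 2 to 7 in 872 (48%) and 8 or more in 455 (25%). Podxl stood at 22830, 25082 and 18608 CPM in these bins and Eng at 16440, 15999 and 10299, so neither was confined to cells without Slc4a1. Hemgn stood at 12222, 17267 and 31425 CPM. Even the progenitors with at least 8 Slc4a1 transcripts had 4.11 Podxl transcripts per cell, against 0.846 in Slc4a1-high cells, which lacked Kit.

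The progenitors had larger nuclei and larger outlines. The rule needs several transcripts in a cell and so depends on the size of the outline, and its part in these sizes was not tested. The median nucleus covered 34.5 µm2 (quartiles 25 to 44.4) against 28.0 µm2 (22.2 to 35.0) in Slc4a1-high cells, a ratio of 1.23. The median cell outline was 79.5 against 58.0 µm2, so the nucleus took up 43.8% of the outline against 50.4%. Among cells with 100 to 200 transcripts, which were 948 progenitors and 10105 Slc4a1-high cells, the nuclei measured 30.2 and 27.3 µm2. The ratio was thus smaller at like depth, at 1.11.

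Nucleus area was larger in the bins richer in Kit and in those richer in Slc4a1. It was 31.0 µm2 at 2 Kit transcripts and 33.6, 36.1 and 45.2 µm2 in the richer bins. Across the Slc4a1 bins it was 30.9, 34.2 and 37.8 µm2. Median depth went from 159 to 223 transcripts over the Kit bins and from 154 to 212 over the Slc4a1 bins, and its part in these areas was not tested. Progenitors held 229 transcripts per 100 µm2 of outline at the median and Slc4a1-high cells 269, so the higher totals of the progenitors went with larger and not with denser outlines.

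**Figure D3:**
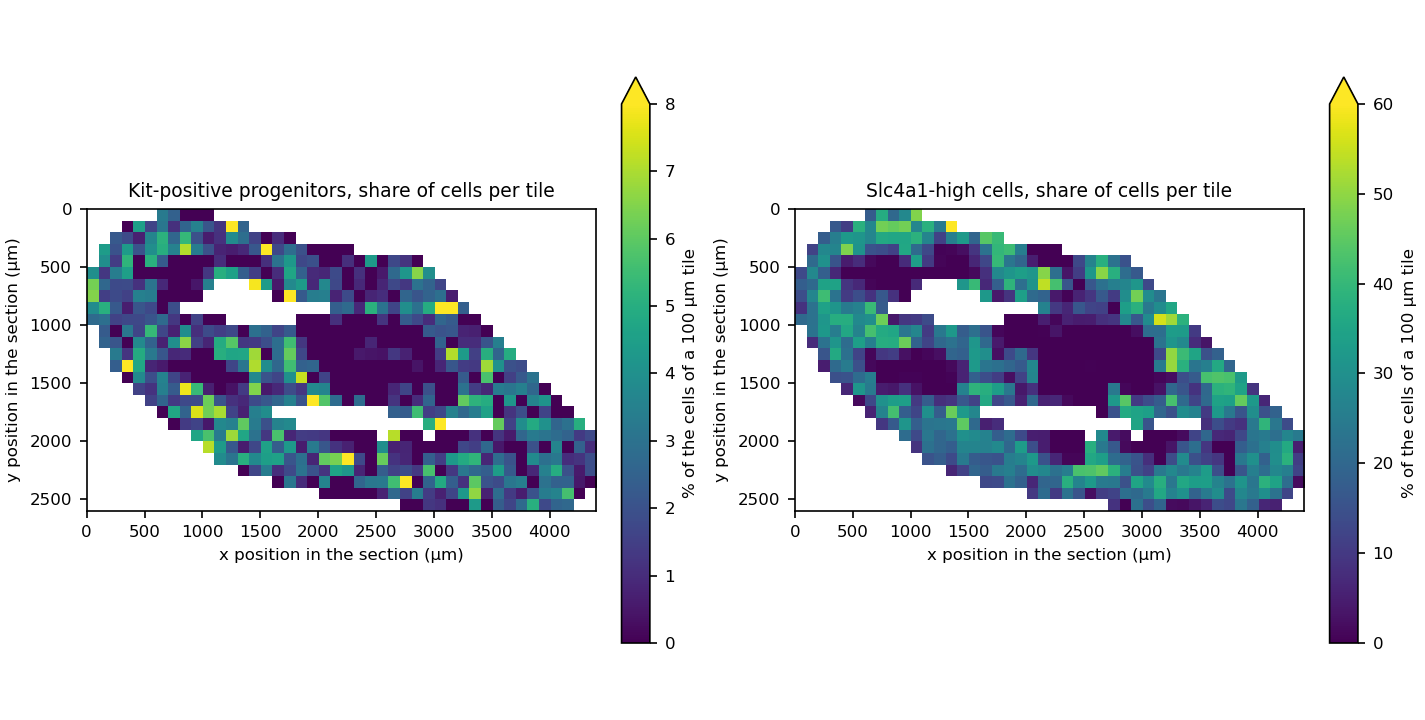
Maps of the PHZ-treated spleen in tiles of 100 µm that hold at least 20 cells, colored by the share of cells that are progenitors (color scale 0 to 8%) or Slc4a1-high cells (0 to 60%), with both axes in µm. Both kinds of cell are spread over most of the section, and the dark patches with few Slc4a1-high cells, the largest near the middle, hold few progenitors.

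In the section, the progenitors were spread over most of the tissue. Over 191 tiles of 200 µm with at least 100 cells, their share of cells had a median of 2.02% and a maximum of 8.62%, and 15 tiles held none. The 20 tiles with the most progenitors, of which the last tied at 19 with a tile outside, held 26.0% of the 1802 progenitors in the 191 tiles, 18.0% of the Slc4a1-high cells and 12.8% of all cells. For comparison, the 20 tiles with the most Slc4a1-high cells held 26.6% of those cells. Across all 191 tiles, which share the same section, the share of progenitors and that of Slc4a1-high cells had a Pearson correlation of 0.378 and a Spearman correlation of 0.430, given as a description.

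At the scale of 40 µm, the progenitors were near one another. A progenitor had 2.57 ± 2.16 other progenitors within 40 µm of its centre, an Slc4a1-high cell had 1.85, and any cell 1.37, which is a ratio of 1.88 for progenitors over any cell. Compared with any cell of the same 200 µm tile the ratio was 1.27, and against the surroundings of Kit-0 erythroid cells it was 1.32. Another progenitor was within 40 µm of 85.7% of progenitors and of 56.5% of all cells. The nearest progenitor lay at a median of 18.7 µm from a progenitor and 35.0 µm from any cell. Of the progenitors 21.7% had another within 10 µm, a distance at which outlines of this size touch.

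Slc4a1-high cells were fewer around progenitors than around one another. There were 16.3 ± 10.3 of them around a progenitor, 22.8 around another Slc4a1-high cell and 12.7 around any cell, and within the same tile the ratio for progenitors was 0.99. C1q-positive cells, with at least 3 C1q transcripts, numbered 21.2 ± 11.2 around a progenitor, 21.0 around an Slc4a1-high cell and 28.6 around any cell. The ratio of 0.74 for progenitors over any cell became 0.89 within the same tile and 0.98 against Kit-0 erythroid cells, so with respect to C1q-positive cells the progenitors had surroundings much like those of other erythroid cells. The rule bars cells with 3 or more C1q transcripts from the progenitors, and with that limit lifted the ratio was 0.83. The nearest C1q-positive cell was at a median of 10.1 µm from a progenitor, 9.33 µm from an Slc4a1-high cell and 8.28 µm from any cell.

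T cells were sparse around the progenitors. Cells of the T cell gate numbered 0.865 within 40 µm of a progenitor, 0.552 of an Slc4a1-high cell and 4.38 of any cell. The ratio of 0.20 for progenitors over any cell was 0.72 within the same tile. Cells of the endothelial gate numbered 3.21 around a progenitor, 2.59 around an Slc4a1-high cell and 2.77 around any cell, and those of the neutrophil gate 2.53, 1.79 and 2.00. Within the same tile the ratios for progenitors over any cell, 1.16 and 1.26, were 1.11 and 1.04. Of the progenitors, 205 (11.3%) themselves passed the endothelial gate, 59 (3.25%) the neutrophil gate and 10 (0.55%) the T cell gate. Such progenitors were counted among these neighbors, and their part in the ratios was not tested. The total number of cells within 40 µm was lower around progenitors (71.2) than around Slc4a1-high cells (75.1) or any cell (84.0).

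**Figure D4:**
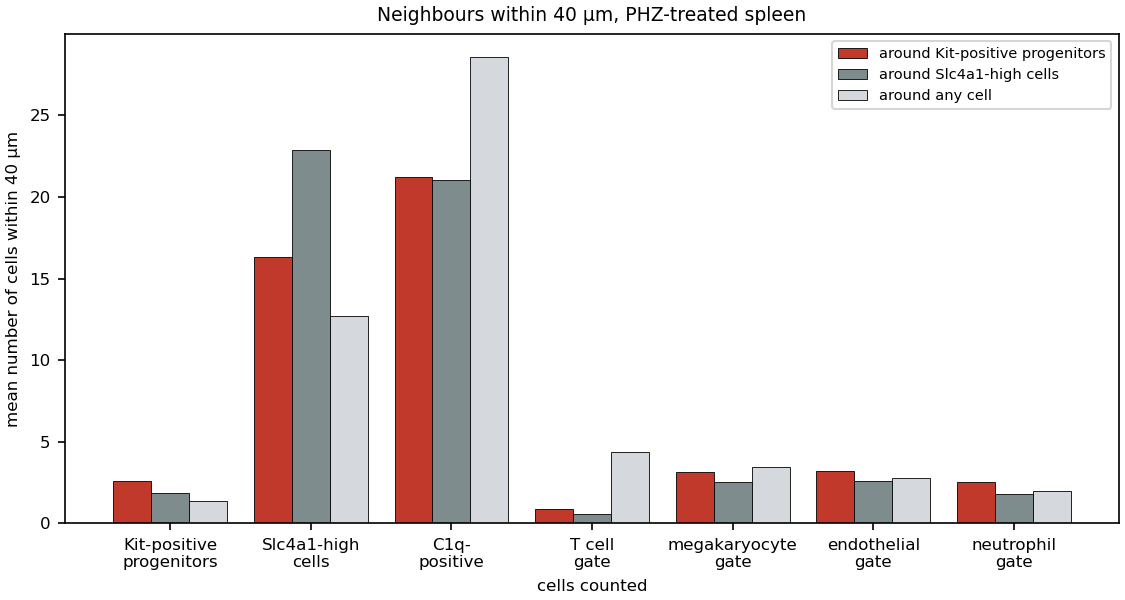
Mean number of cells of each gate within 40 µm (vertical axis) of a progenitor, an Slc4a1-high cell and any cell of the PHZ-treated spleen, without error bars since cells of a single section are not replicates. Progenitors have the most progenitors around them (2.57), Slc4a1-high cells the most Slc4a1-high cells (22.8), and both have few T cells.

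The section was also divided into 4 fields at the median cell position in x and y. The share of progenitors ranged from 1.26% to 2.56% among these fields, the median nucleus from 34.3 to 34.8 µm2 in progenitors and from 27.2 to 28.7 µm2 in Slc4a1-high cells. The log2 ratio over Slc4a1-high cells within a field ranged from 2.62 to 2.95 for Cd48, from 2.16 to 2.29 for Eng, from 1.01 to 1.14 for Stmn1 and from -1.55 to -1.53 for Slc25a37. In contrast, sparse genes varied widely, such as Cd34, from 1.38 to 4.38. These fields are parts of a single spleen and do not stand for replicate mice.

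The same rule found far fewer cells in the untreated spleen, which lay on the same slide. There 64 of 108338 cells met it (0.0591%, 0.0455 to 0.0754), so that the share after PHZ was 32.5 times as high. A Kit count of 2 or more, whatever else a cell held, was found in 3.65% of the untreated and 4.60% of the PHZ-treated spleen. Of 407 untreated cells with enough Kit and erythroid transcripts, 343 (84.3%) exceeded the C1q limit. With no C1q limit the shares were 3.28% and 0.376%, a ratio of 8.74, and with every cell thinned to 50 transcripts 0.431% and 0.0547%, a ratio of 7.88. Thinning left out 14740 shallower cells of the PHZ-treated and 16939 of the untreated spleen. The limits stayed the same, so thinned cells passed the C1q limit more easily and the other limits less easily. Mouse and treatment cannot be told apart, since each spleen came from a single mouse.

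The 64 untreated cells differed from the progenitors of the PHZ-treated spleen in more than number. They held 0.859 transcripts of Slc4a1 and 1.44 of Hemgn per cell, against 5.31 and 3.79, and their median nucleus was 24.0 µm2. T cell genes summed to 5274 CPM against 648, megakaryocyte genes to 25511 against 5849 and macrophage genes to 57696 against 35259. Mast cell and basophil genes, of a lineage that carries Kit, summed to 1292 CPM against 115 and were seen in 12.5% of the untreated cells, and NK cell genes summed to 2261 against 306. The whole untreated section was also higher than the PHZ-treated one for each of these lists, with T cell genes at 25630 against 4300 CPM, NK cell genes at 4691 against 603, macrophage genes at 111936 against 72223, megakaryocyte genes at 9283 against 7192 and mast cell and basophil genes at 327 against 147. Their part in the gene ratios below was not tested, and the untreated cells are called by the rule and not by a cell type.

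Over 155 genes with at least 100 transcripts, 23 (14.8%) were at least 2-fold higher and 47 (30.3%) at least 2-fold lower in the PHZ-treated group. The highest was Podxl, with 4.23 transcripts per progenitor against 11 transcripts in all 64 untreated cells, 0.172 per cell (log2 4.26, 3.42 to 5.26). Podxl was also higher in the whole PHZ-treated section (5385 against 766 CPM). Next were the acute phase gene Saa3 (log2 3.34, 0.85 to 8.64), the smooth muscle gene Tagln (3.32, 1.77 to 5.60), Mpo (3.19, 0.70 to 8.50) and Il4 (3.13, 0.64 to 8.44), which rest on 1 to 3 untreated transcripts each. The lowest were Scin (log2 -4.28), the chemokine Ccl5 (-3.57), the lymphoid chromatin protein Satb1 (-3.52), Coch (-3.19) and Epsti1 (-3.02). Ccl5 and Satb1 are known from T cells, whose genes stood higher in the untreated cells as given above. Whole sections differed the same way, at 1803 against 78.7 CPM for Saa3, 6159 against 2371 for Tagln, 1142 against 265 for Mpo, 2049 against 11951 for Ccl5 and 1789 against 8984 for Satb1, in the PHZ-treated and the untreated spleen. For Scin the sections stood at 105 and 160 CPM and for Il4 at 187 and 203.

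In the other tissues read with this panel the rule found 9055 of 117329 cells in the E14.5 fetal liver (7.72%) and 895 of 52594 in the P8 bone marrow (1.7%). Per 100 Slc4a1-high cells there were 16.6 progenitors in the fetal liver, 11.4 in the PHZ-treated spleen and 7.32 in the bone marrow. The untreated spleen gave 41.0, which rests on 156 Slc4a1-high cells and on the 64 cells not called by a cell type. The liver and the marrow lay on another slide than the spleens, so slide and tissue cannot be told apart. The C1q limit removed 7.07% and 10.6% of otherwise qualifying cells there.

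Within each tissue the progenitors were set against that tissue's own Slc4a1-high cells. In the fetal liver 60 of 440 genes (13.6%) were at least 2-fold higher and 13 (2.95%) at least 2-fold lower, with a median log2 of 0.26, and in the bone marrow 62 of 264 (23.5%) and 6 (2.27%), with a median of 0.45. Among 259 genes tested in both, 29 were higher in the PHZ-treated spleen and the fetal liver, which is 32.6% of the spleen's higher genes and 51.8% of the liver's, where 21.6% of the 259 were higher in the liver. Among 227 genes tested in both, 41 were higher in the spleen and the bone marrow, 54.7% and 70.7% of their lists, where 25.6% of the 227 were higher in the bone marrow. Of the 8 genes lower in the spleen, 5 were also lower in the liver and 5 in the bone marrow.

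Of the 9 early progenitor genes outside the rule, Podxl, Cd34, Cd44 and Cd48 alone had ratios above 2-fold in all 3 tissues. Podxl stood at a log2 of 2.07 in the PHZ-treated spleen, 2.33 in the fetal liver and 3.05 in the bone marrow, Cd34 at 2.41, 2.38 and 2.60, Cd44 at 1.50, 2.42 and 1.77, and Cd48 at 2.79, 2.75 and 1.31. Outside that list, so did Tmem147 (2.30, 1.94 and 2.85), Selenbp1 (1.79, 1.34 and 1.61), Diaph1 (1.40, 1.36 and 1.24) and Stmn1 (1.04, 1.29 and 1.37). Gatm and Il4 did so as well, with the values given below. In the fetal liver, progenitors against Slc4a1-high cells stood at 95.2 and 134 CPM for Ly6a, 28231 and 38321 for Car2, 1060 and 728 for Cd93, and 308 and 190 for Slamf1. In the bone marrow they stood at 201 and 214 CPM for Ly6a, 43491 and 48084 for Car2, 3159 and 1913 for Cd93, and 22490 and 40980 for Ctse. On the lower side, Slc25a37 stood at -1.55, -1.31 and -1.43, and Hemgn at -1.13, -0.96 and -0.83. Hemgn reached 2-fold in the spleen alone of these tissues, but the liver was close to that limit. In the spleen itself Hemgn stood at -0.88 per cell and at -0.97 without cells holding endothelial transcripts. The differences in size, such as that of Cd48, were not tested.

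Some genes had a wider spread across the tissues, and others had opposite signs. Eng had a log2 ratio of 2.27 in the spleen and 2.29 in the bone marrow, but 0.65 in the fetal liver, and Gatm 2.21, 2.78 and 1.08 in the same order. Il4 stood at 3.62 in the spleen, 1.20 in the bone marrow and 1.83 in the fetal liver. The endothelial genes Kdr, Tie1 and Gpihbp1 were at 1.79, 1.99 and 1.79 in the spleen, at 0.91, 0.84 and 0.82 in the bone marrow and at -0.47, -0.23 and -0.37 in the fetal liver. Aqp1 was at -0.23 in the spleen and 1.02 in the fetal liver, and Ctse at -0.58 and 0.46. With a single section of each tissue these differences were not tested.

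**Figure D5:**
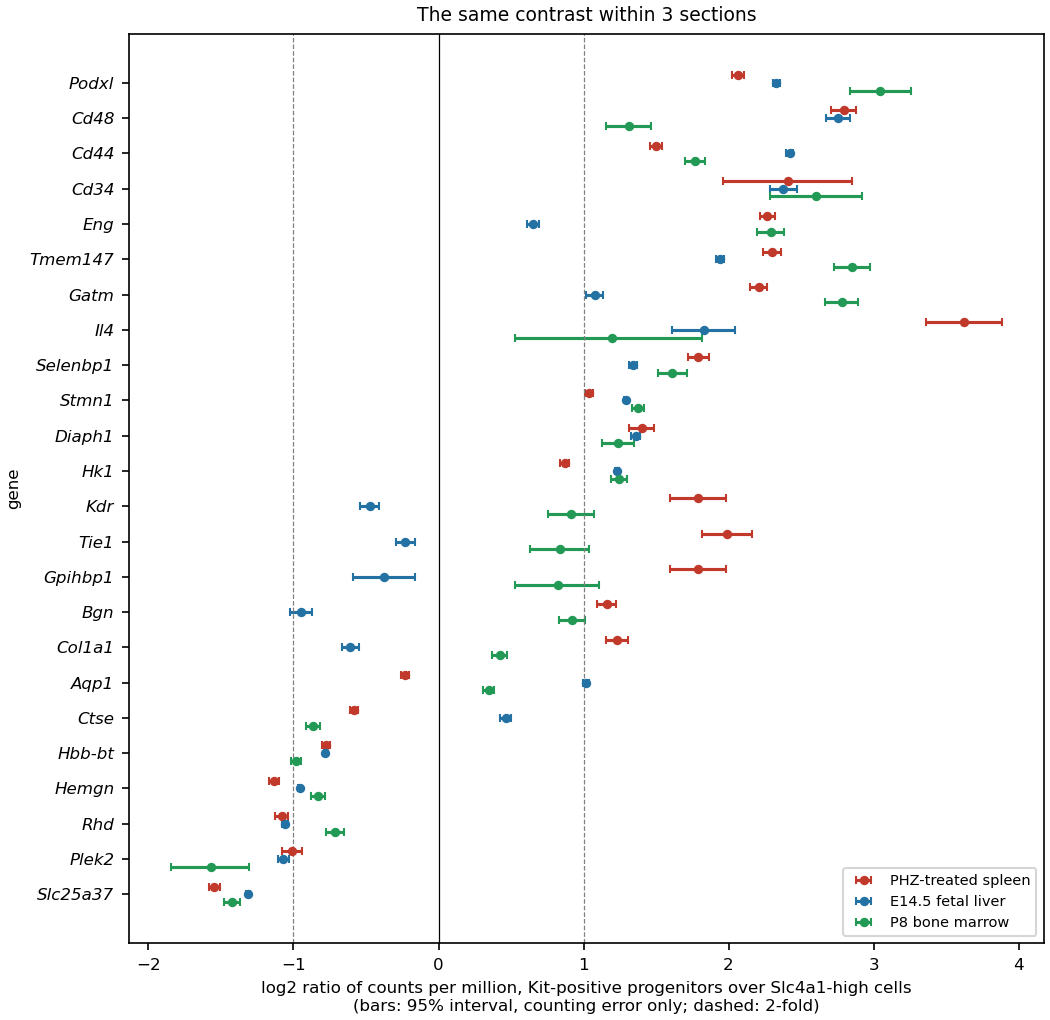
Log2 ratio of CPM, progenitors over Slc4a1-high cells of the same section (horizontal axis), for 24 genes in the PHZ-treated spleen, the E14.5 fetal liver and the P8 bone marrow, with 95% counting intervals as bars. Podxl, Cd34 and Tmem147 lie to the right and Slc25a37 and Hemgn to the left in all 3, whereas Kdr, Tie1 and Gpihbp1 are right of 0 in the spleen and left of it in the fetal liver.

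Levels in the progenitors themselves were also set side by side. Podxl averaged 4.23 transcripts per progenitor in the PHZ-treated spleen, 3.83 in the fetal liver and 0.377 in the bone marrow. Cd48 averaged 1.14, 0.316 and 0.475, Eng 2.69, 0.688 and 1.52, Ctse 7.32, 0.785 and 4.12, and Ly6a 0.927, 0.0234 and 0.0369. Of these 3 tissues, the PHZ-treated spleen was highest for each of these 5 genes, but not for others given below. Median depth was 178.5, 237 and 174 transcripts per progenitor in the same order. On the CPM scale the whole PHZ-treated section was also the highest of the 3 for each of these 5 genes. Podxl stood at 5385, 5239 and 575 CPM, Cd48 at 5024, 606 and 1423, Eng at 5129, 2405 and 2508, and Ctse at 32866, 2124 and 20073. Ly6a stood at 9878, 177 and 1076 CPM, the first above the 4965 CPM of the spleen progenitors. Per cell of the section, however, Podxl was highest in the fetal liver, at 0.651, 0.936 and 0.0705 transcripts. The 64 untreated cells held 1.17 transcripts of Cd48 and 1.03 of Ly6a per cell. Of the other early progenitor genes, Cd44 was also highest in the PHZ-treated spleen, at 3.51, 3.42 and 2.51 transcripts per progenitor. The bone marrow was highest for Car2 (6.67, 6.94 and 7.97), Cd93 (0.411, 0.261 and 0.579) and Slamf1 (0.0842, 0.0756 and 0.0916), in the same order. Cd34 was lower in the PHZ-treated spleen, at 0.0413 transcripts per progenitor against 0.230 in the fetal liver and 0.146 in the bone marrow, as was Mpo, at 0.184 against 1.49 and 1.83. The whole PHZ-treated section was also the lowest for both genes, although for Cd34 the highest section was the bone marrow and not the fetal liver. The sections stood at 196, 589 and 1664 CPM for Cd34 and 1142, 3341 and 5668 for Mpo. The 64 untreated cells held 0.0313 and 0.0156 transcripts per cell.

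Between spleen and fetal liver progenitors, 110 of 306 genes (35.9%) were at least 2-fold higher in the spleen and 85 (27.8%) at least 2-fold lower. The highest were Rsad2, with 1.91 against 0.0263 transcripts per cell (log2 6.58), Ly6a (5.70), Coch (5.68), Serpina3n (5.48) and the chemokine Cxcl13 (5.47). Rsad2 differed across the whole sections as well, at 13218 against 188 CPM, and in their Slc4a1-high cells, at 22536 against 169 CPM. The lowest were Gc (log2 -11.6, -16.9 to -9.13), Ambp (-10.3), Serpina10 (-9.25), Hpx (-8.87) and Igfbp1 (-8.57), which hepatocytes secrete. Gc had 1 transcript in the spleen progenitors and 20443 in those of the liver, where it stood at 8599 CPM in the whole section. Against bone marrow progenitors 44 of 191 genes (23%) were at least 2-fold higher in the spleen and 51 (26.7%) at least 2-fold lower.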

How the data were processed

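Xenium counts of 6 sections were analysed as deposited, and the members and the gene lists were chosen with earlier results of these data known. Per the file headers, the authors' runs used Xenium Onboard Analysis 1.7.1.0 for the 477-gene sections and 3.1.0.4 for the 5050-gene sections. The deposited cell-by-gene counts are whole transcripts per segmented cell, not normalized, from transcripts with a quality score of at least 20 in the files from the authors, and counts rebuilt for both spleens from the deposited transcript lists equaled them. Cell and nucleus areas in µm2, which are signal values that the authors deposited beside the counts as their software outlined them, and cell positions in µm were used as given. The deposited transcript scores and nucleus flags served for alternative settings. Doublets were not called, and no cell was filtered on depth.

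Cells were chosen on raw counts. Counts were summed per group, scaled to CPM and compared as log2 ratios with exact conditional binomial intervals, for genes with at least 100 counts over both groups. Shares have Clopper-Pearson intervals and levels exact Poisson intervals, at 95%, for counting error only. With 1 section per condition no test was run. The named genes are those of the rule and the lists, the 10 highest and 10 lowest ratios against Slc4a1-high cells, and the 5 highest and lowest against untreated and fetal liver progenitors. Some genes of the lists are counted but not reported here. Genes 2-fold above both the Slc4a1-high cells and the section are named as well and were chosen after their values were seen. Median transcripts per cell ranged from 60 to 190 over the sections. Calculations used Python 3.11.15, NumPy 2.4.6, SciPy 1.17.1, pandas 2.3.3 and matplotlib 3.10.9, and were tested on simulated data. Alternatives were a per-cell scale, nuclear transcripts, thinned cells, other limits, other radii and other comparison cells.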

Additional observations from a re-analysis of the deposited data

Results flagged for a closer look

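A gene is given here where the ratio of progenitors over the Slc4a1-high cells of the same section passed 2-fold upward in the PHZ-treated spleen and 2-fold downward in the E14.5 fetal liver. There were 3 such genes, and with a single section of each tissue the differences were not tested. Fbln5, an elastic fiber protein, had a log2 ratio of 1.31 in the spleen, from 60 and 179 transcripts, and of -1.37 in the fetal liver, from 270 and 3173 transcripts. Igfbp3, a binding protein of insulin-like growth factors, had 1.37 in the spleen and -1.12 in the fetal liver, and Sfrp1, a secreted inhibitor of Wnt signaling, 1.06 and -1.03.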

How the results depend on the processing

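The number of 1818 progenitors became 989 with Kit of at least 3, 861 with no C1q transcript, 1528 over the nucleus only and 1584 with a score of at least 30. The share of the PHZ-treated over the untreated spleen, 32.5 (25.4 to 42.4), became 24.1 with Kit of at least 3, 51.9 with no C1q transcript, 15.1 over the nucleus, 7.88 after thinning to 50 transcripts and 8.74 with no C1q limit. The nucleus ratio of 1.23 became 1.11 at 100 to 200 transcripts, 1.33 with Kit of at least 3 and 1.31 against Kit-0 erythroid cells. The neighbor ratio of 1.88 for progenitors became 2.58 at 20 µm, 1.56 at 80 µm, 1.27 within the tile, 2.00 with Kit of at least 3 and 1.32 around Kit-0 erythroid cells. That of 0.74 for C1q-positive cells became 0.67 at 20 µm, 0.78 at 80 µm, 0.89 within the tile, 0.73 with Kit of at least 3, 0.83 with no C1q limit and 0.98 around Kit-0 erythroid cells. The 89 higher genes of 259 tested became 57 of 281 against Kit-0 erythroid cells (52 shared) and 122 of 259 per cell (89 shared). They became 106 of 201 with Slc4a1 of at least 16 (72 shared) and 100 of 219 over the nucleus (76 shared). Without cells holding endothelial transcripts they became 67 of 234 (55 shared). The 8 lower genes became 2 per cell, 18 at a minimum of 30 counts and 5 without cells holding endothelial transcripts. Settings with Kit-0 erythroid cells, without endothelial transcripts and without a C1q limit were chosen after seeing the data. None of these counts and ratios changed direction, but the ratio of Slc4a1-high cells around progenitors over any cell, 1.28, was 0.99 within the tile. Of 90 named genes 14, none of them called, crossed 0 in some setting, as Car2, Aqp1 and Diaph3 did per cell (0.07, 0.02 and 0.02). Of the 90, 39 were called, and all 39 kept their direction in every setting that gave them a value, while 33 stayed 2-fold apart per cell and 28 against Kit-0 erythroid cells. Causes were not tested. No paired analysis was possible because each condition is a single section.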

Other observations

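The rule found 13 of 5285 cells in the E13.5 fetal liver and 39 of 143810 cells in the 89-week bone marrow. Both were read with the larger panel, in which Kit stood at 141 and 143 CPM against 1925 in the PHZ-treated spleen. CPM is scaled to the total of each panel, so these values are not alike. At least 2 Kit transcripts were found in 0.473% and 0.121% of their cells, against 4.60%. Whether a limit of 2 transcripts selects the same cells there was not tested, and no gene ratio was computed for them.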
